A study of Mus musculus with 24 samples.

Results

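The cell cycle and DNA replication genes described here are 45 genes chosen by name, of 16604 genes with a usable row in the expression table. They comprise 16 S phase genes, 24 mitosis genes and 5 regulators of the step from G1 into S phase, and all 45 were measured. The study sequenced RNA from EMS404, a line of mouse hepatic stellate cells, the cells that lay down scar matrix in injured liver. The line came from C57Bl6 liver, was immortalized with SV40 and expresses human TLR4. Cells were given TGFb, the main profibrotic cytokine for stellate cells, and 3 compounds with and without it. The compounds were SB431542, an inhibitor of the TGFb receptor kinase, SR9011, an agonist of the clock repressor REV-ERB, and CLK8, which disrupts the pairing of the clock activators CLOCK and BMAL1.

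There were 8 groups of 3 biological replicates each: SB431542+TGFb, SR9011+TGFb, CLK8+TGFb, TGFb alone, SB431542 alone, SR9011 alone, CLK8 alone and vehicle. The library names give DMSO for the vehicle group. Every group was the same cell line, with no genetic change between groups. Compounds were given for 24 h, and TGFb followed at 10 ng/mL for 24 h with the compound still present. The sources used here give neither the compound doses nor whether cells without TGFb stayed in culture for the later 24 h, so TGFb and that extra time cannot be told apart. All comparisons with vehicle share its 3 libraries, and all comparisons with TGFb alone share its 3 libraries.

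In dividing cells, cyclin D and then cyclin E, with their kinases, inactivate the retinoblastoma protein and free E2F factors, which switch on the genes for DNA replication. Later in the cycle the MuvB complex, with B-Myb and FoxM1, controls a second wave of genes for mitosis. The promoters of these genes often hold elements called the CHR and the CCAAT box. Quiescent stellate cells rarely divide, and activated ones proliferate in injured liver. The large T antigen of SV40 binds both the retinoblastoma protein and p53, which limits an SV40-immortalized line as a model of cell cycle control.

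The 2 gene classes differed in the letters of their promoters. Windows from 250 bases before to 50 bases after the gene start were read from RefSeq on GRCm38.p6, and 36 of the 45 genes had one. A CHR (TTTGAA or TTCGAA, both strands) stood in 16 of 20 mitosis windows, or 80.0%, and in 3 of 13 S phase windows, or 23.1%. It stood in 19.2% of all 32851 windows of the same length. A CCAAT box (CCAAT, both strands) stood in 85.0% of mitosis windows, 69.2% of S phase windows and 37.4% of all windows. An E2F site (the word TTGGCGC, the word TTCCCGC, the word TTCGCGC or the word TTGCCGC, both strands) stood in 8 of 13 S phase windows, or 61.5%, in 4 of 20 mitosis windows, or 20%, and in 9.57% of all windows. These are matches of letters, and no factor was measured at them. TTCGAA reads the same on both strands, and E2F words can overlap each other.

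The 150 bases just before the start are shown for 3 mitosis genes and 2 S phase genes, 5′ to 3′ on the gene's strand. They were chosen, after the motif positions were seen, because they hold contrasting combinations. Capitals mark CHR, CCAAT box and E2F letters. On the opposite strand the CHR word TTTGAA reads as TTCAAA, the CCAAT box as ATTGG and the E2F word TTCGCGC as GCGCGAA. Cdc20, which activates the anaphase-promoting complex, lies on the minus strand and is shown for chr4:118437344-118437493. It has 1 CHR and 2 CCAAT boxes.
Cdc20: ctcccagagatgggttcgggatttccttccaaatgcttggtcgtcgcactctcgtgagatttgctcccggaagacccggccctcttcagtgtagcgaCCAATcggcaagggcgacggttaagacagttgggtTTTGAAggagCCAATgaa
Ccnb2, cyclin B2, is shown for chr9:70421555-70421704 on the minus strand. Its stretch has 3 CCAAT boxes, and its CHR matches lie outside the stretch.
Ccnb2: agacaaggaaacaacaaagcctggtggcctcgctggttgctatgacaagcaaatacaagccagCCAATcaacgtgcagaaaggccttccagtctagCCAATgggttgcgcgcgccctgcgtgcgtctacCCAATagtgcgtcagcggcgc
Top2a, the topoisomerase that untangles chromosomes, is shown for chr11:99024190-99024339 on the minus strand. It has 3 CHR and 4 CCAAT matches.
Top2a: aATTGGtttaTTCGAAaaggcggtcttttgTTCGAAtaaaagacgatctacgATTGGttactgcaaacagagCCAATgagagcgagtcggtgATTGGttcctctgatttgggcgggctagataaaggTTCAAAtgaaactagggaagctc
Mcm6, a subunit of the replicative helicase, is shown for chr1:128359706-128359855 on the minus strand. It has 2 CCAAT boxes and 4 overlapping E2F matches in 2 blocks, and no CHR.
Mcm6: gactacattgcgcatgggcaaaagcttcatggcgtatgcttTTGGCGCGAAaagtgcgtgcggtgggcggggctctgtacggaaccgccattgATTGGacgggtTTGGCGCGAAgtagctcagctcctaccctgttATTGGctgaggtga
Mcm2, another helicase subunit, is shown for chr6:88898781-88898930 on the minus strand. It has 1 CHR and no match to the other motifs in this stretch.
Mcm2: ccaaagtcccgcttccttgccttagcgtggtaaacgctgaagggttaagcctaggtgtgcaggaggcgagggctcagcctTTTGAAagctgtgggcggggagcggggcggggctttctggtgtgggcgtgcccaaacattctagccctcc

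Levels are FPKM (fragment counts scaled by transcript length and by the library's mapped fragments), so the read depth behind each value is unknown. The sums over all genes ran from 503919.8 to 610024.3 per library, and 10780 to 11000 genes reached 1 FPKM. Of the stellate markers, Pdgfrb, Acta2, Col1a1, Col1a2, Col3a1, Vim, Hand2 and Lhx2 passed the filter on low values, while Des, Reln, Ngfr and Rgs5 were each at 0.39 FPKM or less in every library. No row was found for the stellate marker Lrat, the hepatocyte markers Serpina1a and Fgb, or the macrophage markers Adgre1 and Clec4f, so the sums leave them out. The summed hepatocyte markers reached at most 0.25 FPKM, macrophage markers 3.34 FPKM, endothelial markers 3.35 FPKM and cholangiocyte markers 11.6 FPKM. Some of these sums moved with the treatments. The cholangiocyte sum was 2.72 to 3.30 FPKM in SR9011+TGFb, 3.95 to 5.60 FPKM in CLK8+TGFb and 7.41 to 8.70 FPKM in TGFb, and 4.34 to 5.04 FPKM in SR9011 and 4.73 to 5.34 FPKM in CLK8, against 8.25 to 10.6 FPKM in vehicle. The stellate sum was 2720 to 2880 FPKM in SR9011+TGFb, 4870 to 5550 FPKM in CLK8+TGFb and 5400 to 6070 FPKM in TGFb, and 1400 to 1620 FPKM in SR9011 and 3160 to 3250 FPKM in CLK8, against 3950 to 4110 FPKM in vehicle. The endothelial sum was 2.69 to 3.35 FPKM in SR9011+TGFb and 1.01 to 1.09 FPKM in CLK8+TGFb, against 1.32 to 1.46 FPKM in TGFb. It was 1.87 to 2.22 FPKM in SR9011 and 0.89 to 0.97 FPKM in CLK8, against 1.54 to 1.69 FPKM in vehicle. The macrophage sum was 2.52 to 3.34 FPKM in CLK8 and 1.69 to 2.58 FPKM in SR9011, against 1.37 to 2.0 FPKM in vehicle. It was 2.22 to 2.32 FPKM in SR9011+TGFb and 1.45 to 1.61 FPKM in CLK8+TGFb, against 1.14 to 1.76 FPKM in TGFb. Their part in the results below was not tested. Replicate 1 of SR9011 stood apart from its group, with a mean squared deviation over all tested genes of 0.0192. The other SR9011 libraries had 0.0119 and 0.00925, and the libraries of other groups 0.00346 to 0.00891, on the log2 scale. Counts and values of SR9011 without replicate 1 are given beside the main ones below.

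In vehicle cells the classes were all expressed well above the filter. Vehicle means of the S phase genes ran from 26.2 FPKM for Cdc6, a factor that loads the helicase, to 502.5 FPKM for Pcna, the sliding clamp of the replication fork, with a median of 121.8 FPKM. Vehicle means of the mitosis genes ran from 15.1 FPKM for Cenpf, a kinetochore protein, to 240.9 FPKM for Top2a, with a median of 72.0 FPKM. The 5 regulators were the lowest class, from 9.74 FPKM for Ccnd1 to 46.7 FPKM for E2f1. Another measured gene overlaps 11 of the members, and no source used here says whether counting used strand. These are Mcm7, Cdc45, Gins2, Tk1, Ccna2, Cdc20, Kif20a, Nusap1, Prc1, Ccnd1 and Ccne2, whose values may include reads of the neighbour.

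Added up by class, the 2 waves of the cycle moved differently. The summed S phase FPKM was 2019, 2054 and 2070 in SB431542+TGFb, 1749, 1713 and 1738 in SR9011+TGFb, 1989, 1958 and 2012 in CLK8+TGFb and 1798, 1805 and 1824 in TGFb. It was 2089, 2183 and 2146 in SB431542, 1910, 1821 and 1824 in SR9011, 2193, 2176 and 2190 in CLK8 and 2069, 2071 and 2056 in vehicle. The 3 CLK8 libraries were above all vehicle libraries, and the SR9011 and TGFb libraries below them.
The summed mitosis FPKM was 1840, 1929 and 2001 in SB431542+TGFb, 1477, 1453 and 1487 in SR9011+TGFb, 1504, 1568 and 1518 in CLK8+TGFb and 1742, 1732 and 1699 in TGFb. It was 1927, 2110 and 2024 in SB431542, 1376, 1399 and 1335 in SR9011, 1710, 1860 and 1765 in CLK8 and 1927, 1956 and 1973 in vehicle. Here the CLK8 libraries were below all vehicle libraries, and SR9011 was the lowest group.

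**Figure D1:**
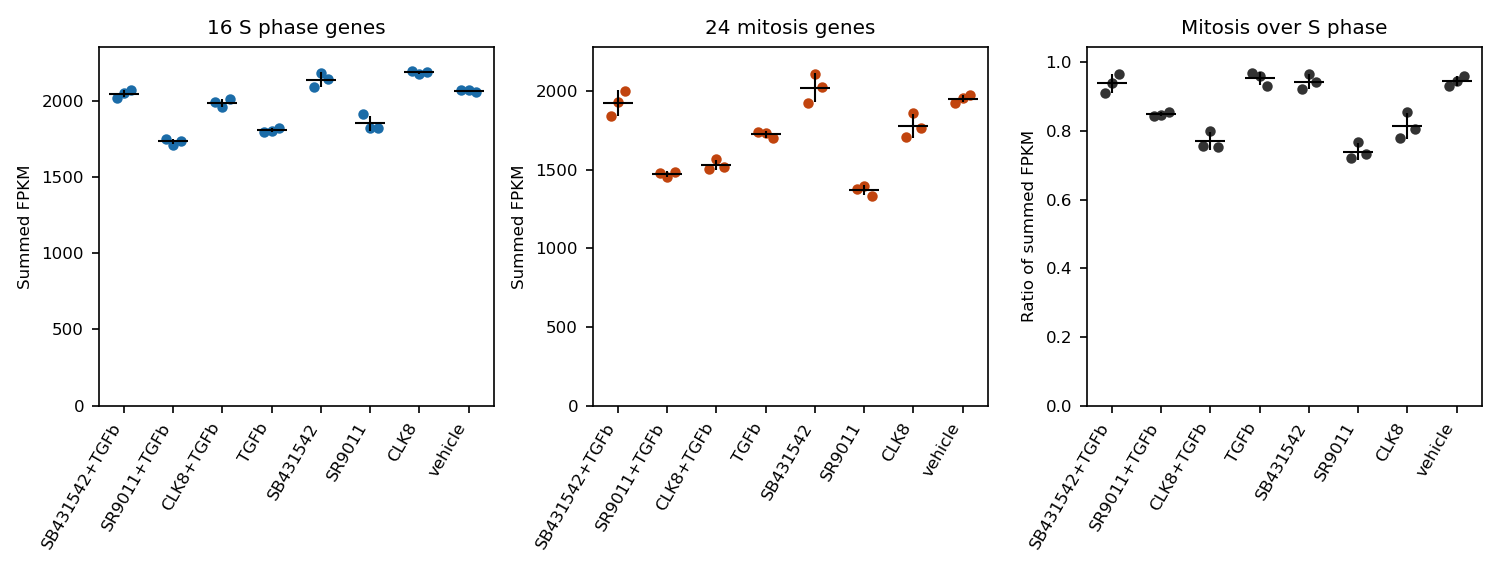
Summed FPKM of the 16 S phase genes, of the 24 mitosis genes, and the ratio of mitosis to S phase sums, by group. Points are libraries, horizontal bars group means and vertical bars SD (n = 3 each). All SR9011 and CLK8 libraries, with or without TGFb, have a lower ratio than any vehicle or TGFb library.

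The ratio of mitosis to S phase FPKM separated the clock compounds from the rest. It was 0.740 ± 0.0246 in SR9011 and 0.814 ± 0.0381 in CLK8, against 0.946 ± 0.0140 in vehicle (SD, n = 3 each). Without replicate 1 the SR9011 ratios were 0.768 and 0.732. With TGFb it was 0.849 ± 0.00557 in SR9011+TGFb and 0.770 ± 0.0257 in CLK8+TGFb, against 0.954 ± 0.0193 in TGFb. SB431542+TGFb had 0.939 ± 0.0280 and SB431542 0.944 ± 0.0225, and their libraries overlapped those of TGFb and vehicle. These ratios weight genes by their level, are described over chosen genes and carry no test. In bulk RNA, fewer cells in a phase and less RNA per cell cannot be told apart.
By single genes, 18 of the 24 mitosis genes had their lowest group mean in SR9011 and 19 had their highest in SB431542. Leaving out SR9011 replicate 1, 20 were lowest in SR9011. SB431542 alone called none of the 24 against vehicle, with a median log2 fold change of 0.05 against 0.03 over all genes. How often all genes had these groups as lowest or highest was not counted. The S phase genes were more divided, with 8 of 16 lowest in SR9011+TGFb, 4 lowest in TGFb and 8 highest in CLK8.

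**Figure D2:**
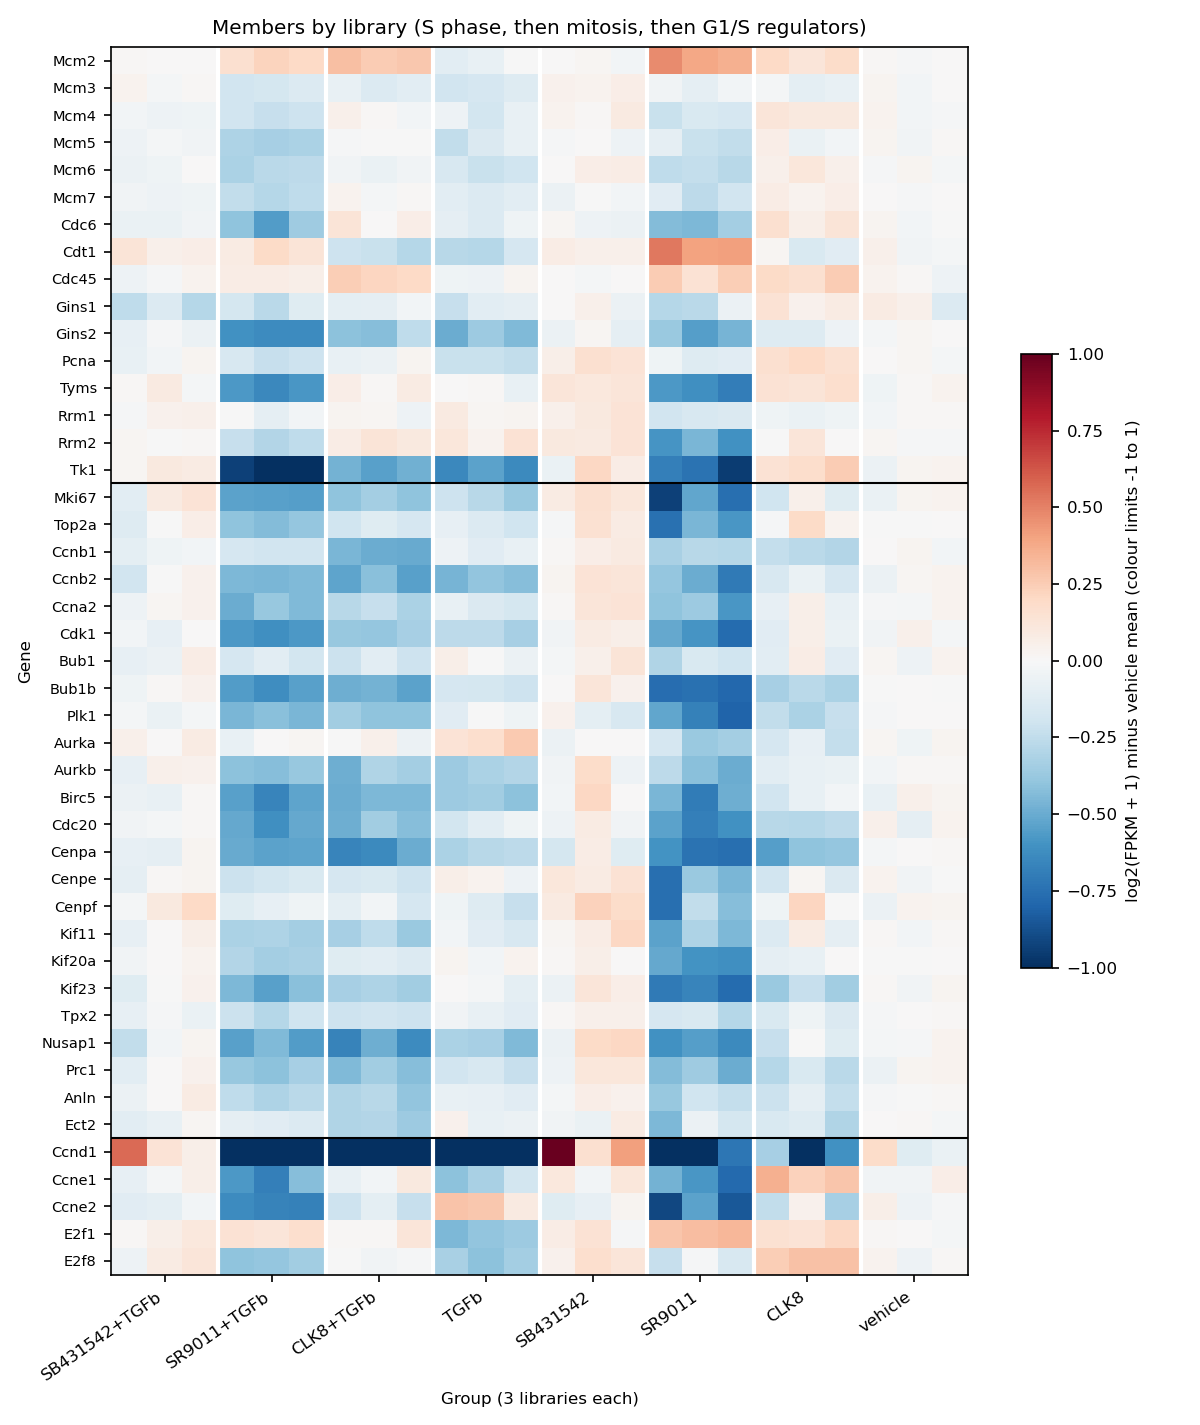
Log2(FPKM + 1) of each member in each library minus its vehicle mean, with colour limits at -1 and 1 and 3 libraries per group. The mitosis block is blue throughout SR9011, while Mcm2, Cdt1 and Cdc45 in the S phase block are red there.

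Each gene was tested with limma on log2(FPKM + 1) over the 11297 genes that reached 1 FPKM in at least 3 libraries, with Benjamini-Hochberg adjustment over those genes. A gene is called when its adjusted p is under 0.05, and fold changes are on the log2(FPKM + 1) scale. Overlap of libraries between groups is described for named genes, and its share over all genes was not counted. The pseudocount of 1 understates changes of low genes. All 45 members passed the filter. Group means rest on 3 libraries each, and the median standard error (SE) of a log2 fold change was 0.0639.

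SR9011 alone had the most calls of the 4 comparisons with vehicle, as 39 of the 45 members fell, 4 rose and 2 were not called. Of all genes tested, 69.1% were called in this comparison, 40.7% higher and 28.3% lower. The members' median log2 fold change was -0.43, and the median over all genes was 0.06. Without SR9011 replicate 1 the members called numbered 42.
CLK8 alone split the members by class, with 9 higher and 12 lower, of which the 6 S phase genes called were all higher and the 11 mitosis genes called were all lower. Of all genes, 43.9% were called, 30.3% higher and 13.6% lower. After quantile normalization the split was 7 higher and 15 lower, against 21.1% and 19.4% of all genes.
TGFb alone was followed by 24 lower and 2 higher members against vehicle, with a median of -0.14. Of all genes, 54.9% were called, 20.5% higher and 34.4% lower, so the members' 26 calls of 45 were a share near that of all genes. By direction, the members' share lower was above that of all genes and their share higher below it. This split depended on scaling. Brought to the same sum in every library (TPM), 4 members were higher and 17 lower, against 26.6% and 25.5% of all genes. After quantile normalization 3 were higher and 20 lower, against 27.2% and 27.5% of all genes.
SB431542 alone called no member at an adjusted p under 0.05 in limma, against 16.9% of all genes, 11.9% higher and 5.05% lower. At an unadjusted p under 0.05 it called 6 members, and their median over all 45 was 0.05.

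**Figure D3:**
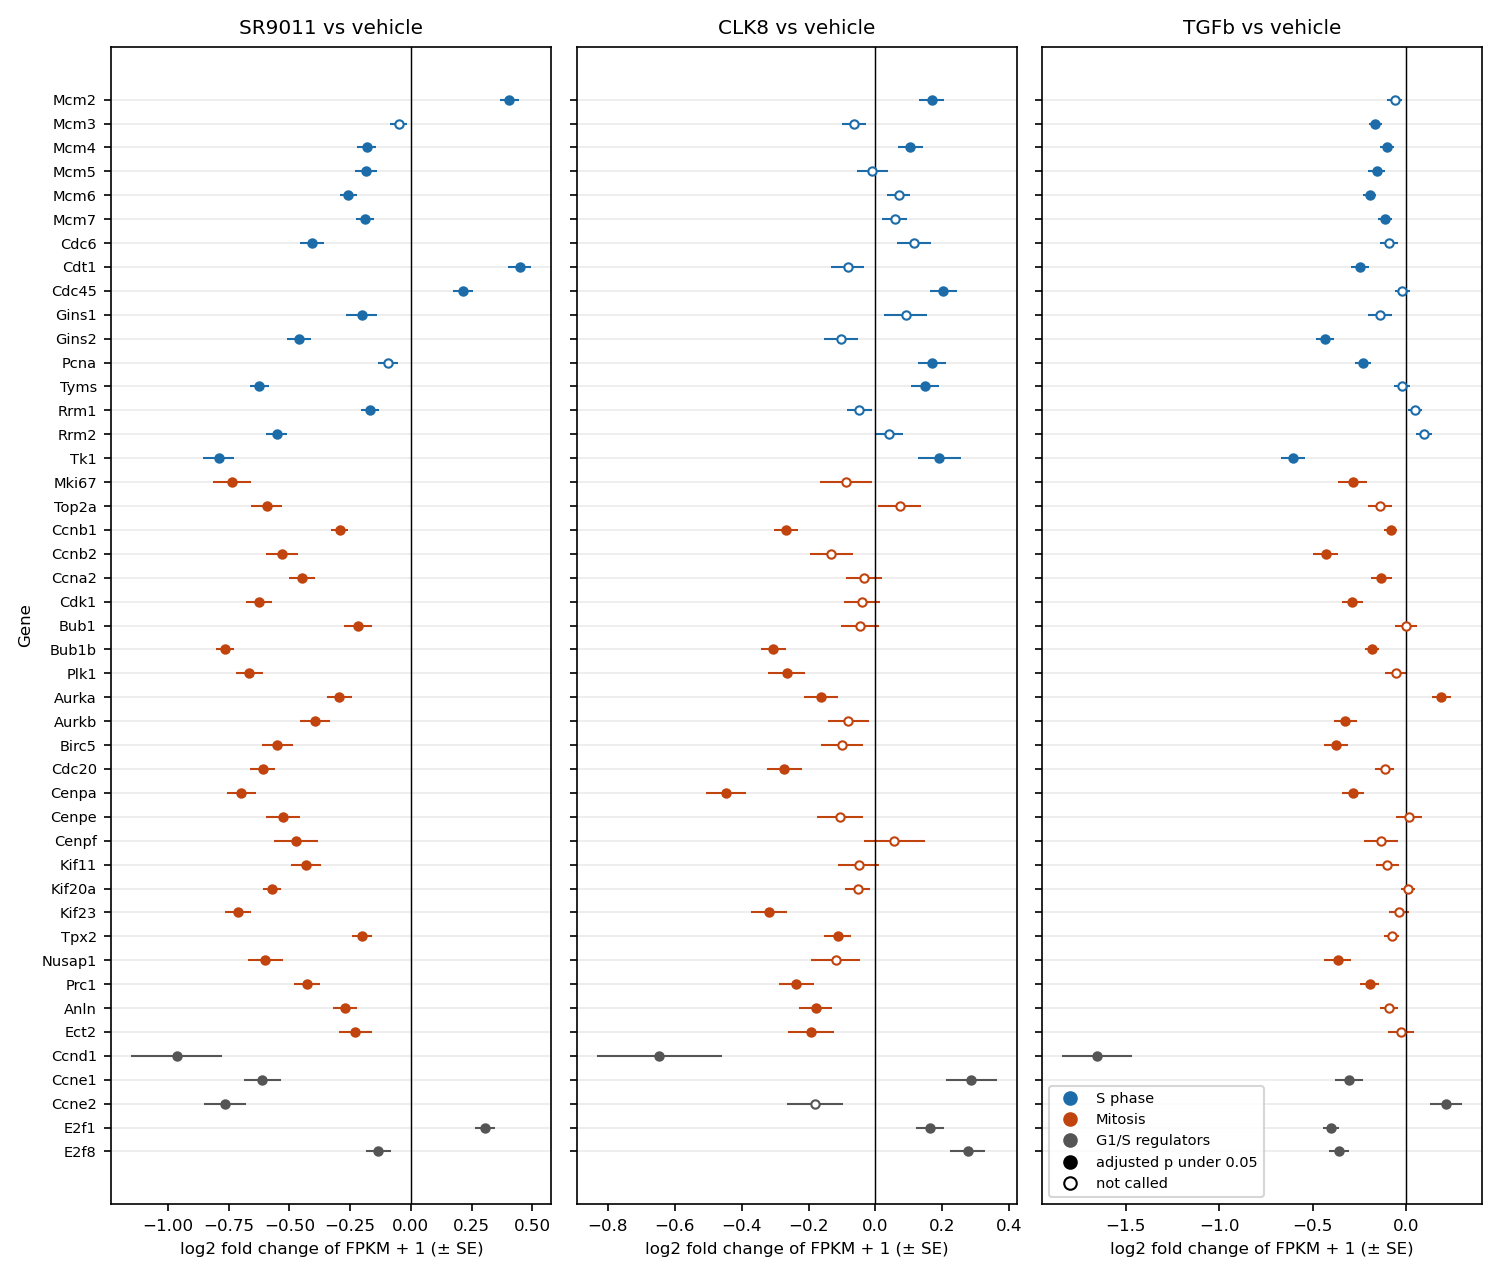
Log2 fold change of FPKM + 1 with its SE for each member in SR9011, CLK8 and TGFb against vehicle. Filled points have an adjusted p under 0.05 (limma, n = 3 per group). All 24 mitosis points are left of 0 and filled under SR9011, against 11 filled under CLK8.

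Among the regulators of the G1 to S step, Ccnd1, cyclin D1, varied most over the groups, by 12.7-fold between the highest and the lowest group mean. It had 14.8, 10.7 and 10.1 FPKM in SB431542+TGFb, 1.56, 1.17 and 1.49 FPKM in SR9011+TGFb, 1.53, 0.98 and 0.98 FPKM in CLK8+TGFb and 2.28, 2.26 and 2.68 FPKM in TGFb. It had 20.2, 11.0 and 13.2 FPKM in SB431542, 4.24, 3.87 and 5.47 FPKM in SR9011, 7.49, 4.35 and 6.02 FPKM in CLK8 and 11.2, 8.85 and 9.21 FPKM in vehicle. All 3 TGFb libraries lay below every vehicle library, while SB431542+TGFb lay in the vehicle range or above it.
Ccnd1 fell with TGFb by 1.65 on the log2 scale (SE 0.187, limma adjusted p = 2.71e-07). It also fell with SR9011 alone (log2 fold change -0.96, adjusted p = 0.000126) and with CLK8 alone (-0.65, adjusted p = 0.00837). On top of TGFb it fell further with SR9011 (-0.50, adjusted p = 0.0253) and CLK8 (-0.66, adjusted p = 0.00763), and rose with SB431542 (1.90, adjusted p = 2.71e-08). With SB431542 alone it had a log2 fold change of 0.52 and was not called by limma (adjusted p = 0.0629), and the groups overlapped. TGFb also lowered it in the presence of SR9011 (-1.19, adjusted p = 2.78e-05) and of CLK8 (-1.67, adjusted p = 2.29e-07), while in the presence of SB431542 its change of -0.27 was not called (adjusted p = 0.519). Its overlapping neighbour, on the other strand, is LTO1.

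Cyclin E, the next cyclin in the sequence, behaved differently for its 2 genes. Ccne1, cyclin E1, had 9.23, 8.45 and 7.28 FPKM in SR9011, 17.1, 15.6 and 16.2 FPKM in CLK8 and 9.70, 10.3 and 11.5 FPKM in TGFb, against 12.8, 12.9 and 13.9 FPKM in vehicle. None of the 3 treated groups overlapped vehicle, and CLK8 lay on the other side of it from SR9011 and TGFb. The log2 fold changes were -0.61 with SR9011 (limma adjusted p = 2.20e-07), 0.29 with CLK8 (adjusted p = 0.00398) and -0.31 with TGFb (adjusted p = 0.00169). Against TGFb alone, Ccne1 rose with SB431542+TGFb (0.29, adjusted p = 0.00215) and CLK8+TGFb (0.31, adjusted p = 0.00262) and fell with SR9011+TGFb (-0.26, adjusted p = 0.00570).
Ccne2, cyclin E2, had 13.6, 18 and 14.3 FPKM in SR9011, 22.2, 27.4 and 20.9 FPKM in CLK8 and 32.5, 32.2 and 28.3 FPKM in TGFb, against 27.7, 25.7 and 26.3 FPKM in vehicle. It was the regulator that rose with TGFb (log2 fold change 0.21, limma adjusted p = 0.0374), a call lost when genes at all levels were tested. It fell with SR9011 (-0.76, adjusted p = 3.71e-08), and with CLK8 its change of -0.18 was not called (adjusted p = 0.0897). On top of TGFb it fell with SR9011 (-0.87, adjusted p = 6.89e-09), CLK8 (-0.39, adjusted p = 0.000759) and SB431542 (-0.29, adjusted p = 0.00494).

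E2f1, the activating E2F that drives replication genes, had 56.7, 58.0 and 59.1 FPKM in SR9011, 51.9, 51.4 and 53.9 FPKM in CLK8 and 33.9, 35.3 and 36.1 FPKM in TGFb, against 47.1, 46.9 and 46.1 FPKM in vehicle. TGFb was below vehicle and the clock compounds were above it, with no overlap. The log2 fold changes were 0.30 with SR9011 (limma adjusted p = 1.20e-06), 0.16 with CLK8 (adjusted p = 0.00352) and -0.40 with TGFb (adjusted p = 3.50e-08).
On top of TGFb, E2f1 rose with each compound, by 0.46 with SB431542 (limma adjusted p = 2.86e-09), 0.55 with SR9011 (adjusted p = 1.48e-10) and 0.45 with CLK8 (adjusted p = 2.02e-08). It was 47.1, 48.6 and 50.4 FPKM in SB431542+TGFb, 51.7, 50.9 and 52.7 FPKM in SR9011+TGFb and 47.1, 47.0 and 50.8 FPKM in CLK8+TGFb. Every library with a compound and TGFb was thus above every TGFb library.
E2f8, a repressive E2F that is itself induced in S phase, had 16.3, 19.1 and 17.2 FPKM in SR9011, 23.1, 23.8 and 23.9 FPKM in CLK8 and 15.3, 14.3 and 15 FPKM in TGFb, against 19.9, 18.7 and 19.5 FPKM in vehicle. It rose with CLK8 (0.28, limma adjusted p = 0.000174) and fell with TGFb (-0.36, adjusted p = 4.28e-06). With SR9011 it fell (-0.13, adjusted p = 0.0272), although these groups overlapped and the call was lost when only the 2 groups were fitted. With TGFb present it rose with SB431542 (0.41, adjusted p = 5.04e-07) and CLK8 (0.34, adjusted p = 1.73e-05), and with SR9011 it was not called (-0.02, adjusted p = 0.758).
Without SR9011 replicate 1 the regulators changed with SR9011 by -0.93 for Ccnd1, -0.68 for Ccne1, -0.69 for Ccne2 and 0.32 for E2f1, all called by limma. E2f8 was then not called (-0.09, adjusted p = 0.152).

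**Figure D4:**
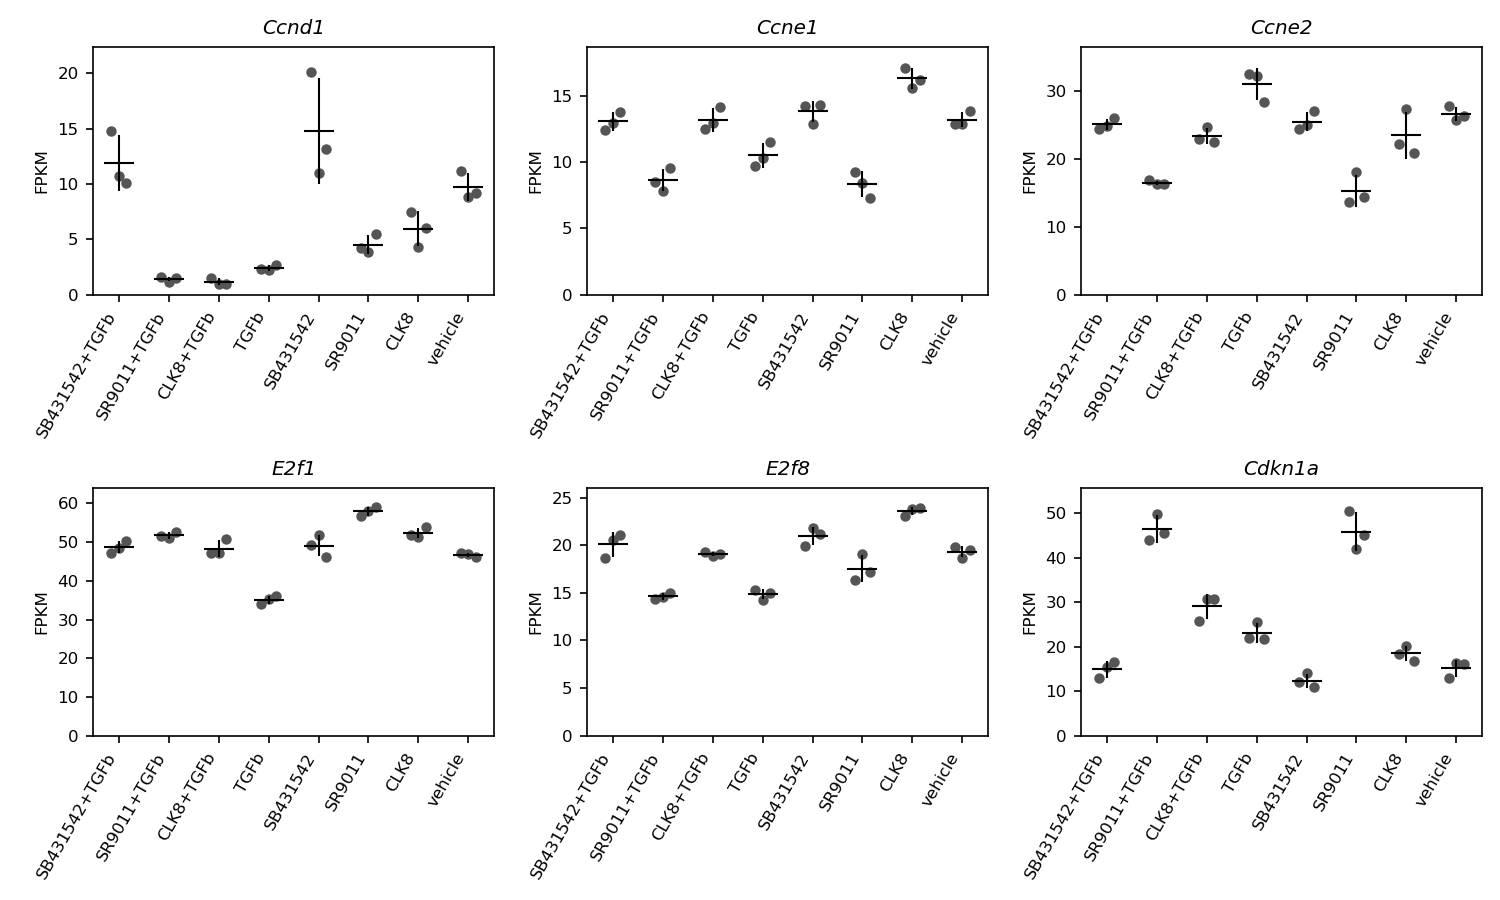
FPKM of the 5 G1/S regulators and of Cdkn1a, the gene for the kinase inhibitor p21, by group. Points are libraries, horizontal bars means and vertical bars SD (n = 3 each). Ccnd1 is lowest in CLK8+TGFb and SR9011+TGFb, and Cdkn1a is highest in both SR9011 groups.

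In the S phase class, SR9011 alone was followed by lower levels of 11 of 16 genes and higher levels of 3, with a median log2 fold change of -0.19. Of all genes, 28.3% were lower and 40.7% higher, with a median of 0.06. With replicate 1 of SR9011 left out, 12 fell and 3 rose, and the median was -0.20. Tk1, Tyms, Rrm2 and Gins2 had the largest falls. Tk1, thymidine kinase, had 110, 106 and 91.9 FPKM in SR9011 against 171, 182 and 182 FPKM in vehicle (log2 fold change -0.79, limma adjusted p = 1.77e-10). Tyms, thymidylate synthase, had 25.2, 24.5 and 23.2 FPKM in SR9011 against 36.9, 38.2 and 38.9 FPKM in vehicle (-0.62, adjusted p = 4.74e-12). Rrm2, the regulated subunit of ribonucleotide reductase, had 46.6, 51.1 and 46.2 FPKM in SR9011 against 71.9, 70.0 and 70.4 FPKM in vehicle (-0.55, adjusted p = 7.72e-11). None of these 3 genes, picked among the largest called changes, overlapped between the groups. Rrm1, the other subunit of ribonucleotide reductase, fell by 0.17 (adjusted p = 0.000354 by limma).
Gins2, part of the GINS complex of the active helicase, fell by 0.46 (limma adjusted p = 2.20e-08). The 3 genes that rose act when origins are licensed and fired. Cdt1, which loads the MCM helicase with Cdc6, had 103, 94.8 and 95.3 FPKM in SR9011 against 74.1, 69.8 and 70.3 FPKM in vehicle. Mcm2 had 183, 171 and 168 FPKM in SR9011 against 132, 130 and 131 FPKM in vehicle. Cdc45, the helicase partner of GINS, had 53.6, 49.5 and 53.2 FPKM in SR9011 against 46.0, 45.2 and 43.1 FPKM in vehicle.
The licensing genes therefore did not move as a block, since Cdc6 had 19.2, 19.0 and 20.5 FPKM in SR9011 against 26.8, 25.7 and 26.1 FPKM in vehicle and was among those that fell, as were Mcm4, Mcm5, Mcm6 and Mcm7. Mcm3 (-0.05, limma adjusted p = 0.216) and Pcna (-0.09, adjusted p = 0.0547) were not called. Pcna was called lower without SR9011 replicate 1 (-0.12, limma adjusted p = 0.0191).

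CLK8 alone raised 6 of the 16 S phase genes and lowered none, with a median log2 fold change of 0.08. Of all genes, 30.3% were higher and 13.6% lower, with a median of 0.06, so the share that rose was near that of all genes. After quantile normalization 4 rose and 1 fell, against 21.1% and 19.4% of all genes. Pcna had 561, 577 and 557 FPKM in CLK8 against 504, 509 and 495 FPKM in vehicle (0.17, limma adjusted p = 0.00270). Tk1 had 197, 202 and 213 FPKM in CLK8 against 171, 182 and 182 FPKM in vehicle (0.19, adjusted p = 0.0185). Cdc45 had 51.3, 50.2 and 53.6 FPKM in CLK8 against 46.0, 45.2 and 43.1 FPKM in vehicle (0.20, adjusted p = 0.00023). In each of these genes, picked among the largest called changes, every CLK8 library was above every vehicle library.
Mcm2 (0.17), Tyms (0.15) and Mcm4 (0.10) also rose with CLK8. Mcm5 had the smallest change, with a log2 fold change of -0.01 (limma adjusted p = 0.889).

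TGFb alone lowered 9 of the 16 S phase genes and raised none, with a median of -0.13. Of all genes, 34.4% were lower and 20.5% higher. Rescaled to TPM, 6 fell and 2 rose, against 25.5% and 26.6% of all genes. Tk1 had 114, 123 and 115 FPKM in TGFb against 171, 182 and 182 FPKM in vehicle (-0.60, limma adjusted p = 3.49e-08). Gins2 had 104, 113 and 107 FPKM in TGFb against 144, 148 and 147 FPKM in vehicle (-0.43, adjusted p = 1.23e-07). Cdt1 (-0.25, adjusted p = 0.000167) and Pcna (-0.23, adjusted p = 9.34e-05) followed. These 4 genes, picked as the largest called changes, did not overlap between the groups. Tyms, Rrm1, Rrm2, Cdc6, Mcm2, Gins1 and Cdc45 were not called.

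In the mitosis class all 24 genes fell with SR9011 alone, with a median log2 fold change of -0.53 and a range of -0.77 to -0.20. Of all genes, 28.3% were lower, and the median over all genes was 0.06. Without SR9011 replicate 1, 23 of the 24 were called lower and Ect2, a regulator of cytokinesis, was not. Rescaling to TPM and quantile normalization each called all 24 lower, where 33.4% and 32.6% of all genes were lower. Bub1b, the checkpoint protein BubR1, had 46.7, 47.3 and 45.9 FPKM in SR9011 against 80.0, 80.2 and 79.9 FPKM in vehicle (-0.77, limma adjusted p = 2.49e-14). Mki67, the proliferation antigen Ki-67, had 39.7, 53.2 and 45 FPKM in SR9011 against 73.3, 78.1 and 78.6 FPKM in vehicle (-0.73, adjusted p = 1.79e-08). Kif23, a kinesin of the central spindle, had 21.4, 22.1 and 20.4 FPKM in SR9011 against 35.8, 34.5 and 36.1 FPKM in vehicle (-0.71, adjusted p = 5.17e-11).
These are genes of the checkpoint, of chromatin and of cytokinesis, and among these 3 the spread within SR9011 was widest for Mki67. Cenpa, the centromeric histone, had 85.8, 77.7 and 76.7 FPKM in SR9011 against 129, 131 and 132 FPKM in vehicle (-0.70, limma adjusted p = 5.21e-10). Cdk1, the mitotic kinase, had 39.3, 37.0 and 32.6 FPKM in SR9011 against 55.0, 58.6 and 55.7 FPKM in vehicle. Plk1, the polo-like kinase, had 45.3, 40.5 and 37.0 FPKM in SR9011 against 64.8, 65.5 and 65.4 FPKM in vehicle.
Top2a had 144, 175 and 161 FPKM in SR9011 against 240.5, 240.3 and 242 FPKM in vehicle (-0.59, limma adjusted p = 2.33e-08). Ccnb1, cyclin B1, had 72.7, 75.0 and 74.8 FPKM in SR9011 against 91.3, 92.9 and 89.2 FPKM in vehicle (-0.29, adjusted p = 1.00e-07). The smallest change was that of Tpx2, a spindle assembly factor (-0.20, adjusted p = 0.000117).

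With CLK8 alone 11 of the 24 mitosis genes fell and none rose, with a median of -0.12. Of all genes, 13.6% were lower and 30.3% higher. Cenpa had 88.4, 98.4 and 99.3 FPKM in CLK8 against 129, 131 and 132 FPKM in vehicle (-0.45, limma adjusted p = 2.26e-06). Bub1b had 63.2, 66.3 and 64.2 FPKM in CLK8 against 80.0, 80.2 and 79.9 FPKM in vehicle (-0.31, adjusted p = 6.48e-07). Ccnb1 had 77.1, 75.4 and 74.1 FPKM in CLK8 against 91.3, 92.9 and 89.2 FPKM in vehicle (-0.27, adjusted p = 1.50e-06). Kif23 (-0.32) and Cdc20 (-0.27) also fell without overlap.
Top2a and Mki67 did not pass the test with CLK8. Top2a had 239, 275 and 247 FPKM in CLK8, overlapping vehicle (0.07, limma adjusted p = 0.381), and Mki67 had 66.5, 79.6 and 70.5 FPKM in CLK8, also overlapping vehicle (-0.09, adjusted p = 0.378). SR9011 and CLK8 were not compared directly with each other.

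With TGFb alone 11 of the 24 mitosis genes fell and 1 rose, with a median of -0.12, against 34.4% of all genes lower and 20.5% higher. Rescaled to TPM, 7 fell and 1 rose, against 25.5% and 26.6% of all genes. The share that fell was then near that of all genes, and the share that rose was below it. After quantile normalization 9 fell and 1 rose, against 27.5% and 27.2% of all genes. Ccnb2 had 80.3, 84.3 and 82.8 FPKM in TGFb against 107, 113 and 114 FPKM in vehicle (-0.43, limma adjusted p = 6.79e-06). Birc5, survivin, had 158, 160 and 153 FPKM in TGFb against 194, 211 and 208 FPKM in vehicle (-0.37, adjusted p = 3.17e-05). Nusap1, a spindle protein, had 50.7, 50.2 and 46.4 FPKM in TGFb against 62.5, 63.0 and 64.9 FPKM in vehicle (-0.36, adjusted p = 0.000184). Aurkb, the Aurora kinase of the chromosomal passenger complex to which survivin belongs, fell as well (-0.32, adjusted p = 0.000101).
Aurka, the Aurora kinase of the spindle poles, went the other way, with 60.5, 62.1 and 66.2 FPKM in TGFb against 55.8, 53.4 and 56.1 FPKM in vehicle. It was the one mitosis gene that rose, by 0.19, and the groups did not overlap. Mki67 fell (-0.29, limma adjusted p = 0.00362), a call lost after rescaling to TPM. Ccnb1 fell by 0.08 (adjusted p = 0.0490), a call lost under either other scaling. Top2a (-0.14, adjusted p = 0.0711) was not called, and Bub1, a checkpoint kinase, had the smallest change (0.00).

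The inhibitor of the TGFb receptor kinase, added with TGFb, was followed by 22 higher and 2 lower members against TGFb alone. Of all genes, 59.7% were called, 38.3% higher and 21.4% lower. In the S phase class 7 of 16 rose and none fell, a share of rises near that of all genes. The class median was 0.07, and the median over all genes was also 0.07. Rescaled to TPM, 6 rose and none fell, and both medians were 0.03. Tk1 had 181, 191 and 189 FPKM in SB431542+TGFb against 114, 123 and 115 FPKM in TGFb (0.67, limma adjusted p = 4.56e-09). Gins2 had 138, 145 and 141 FPKM in SB431542+TGFb against 104, 113 and 107 FPKM in TGFb (0.39, adjusted p = 5.57e-07). Cdt1 (0.33) and Pcna (0.20) rose as well. With TGFb alone these 4 genes had -0.60, -0.43, -0.25 and -0.23 against vehicle, a comparison that shares the TGFb libraries.
In the mitosis class 11 of 24 rose and 1 fell, with a median of 0.11, and the share that rose was again near that of all genes. Rescaled to TPM, 8 rose and 1 fell, with a median of 0.07. Ccnb2 had 97.4, 111 and 115 FPKM in SB431542+TGFb against 80.3, 84.3 and 82.8 FPKM in TGFb (0.38, adjusted p = 2.75e-05 by limma). Aurkb (0.33), Birc5 (0.33) and Mki67 (0.32) rose. Aurka, which fell, had 57.1, 55.4 and 58.3 FPKM in SB431542+TGFb against 60.5, 62.1 and 66.2 FPKM in TGFb.

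SR9011 on top of TGFb was followed by 32 lower and 3 higher members against TGFb alone. Of all genes, 60.8% were called, 36.8% higher and 24.0% lower. In the S phase class 10 of 16 fell and 2 rose. Tyms had 25.2, 23.9 and 25.1 FPKM in SR9011+TGFb against 38.1, 38.3 and 36.0 FPKM in TGFb (-0.58, limma adjusted p = 2.83e-11). Tk1 had 92.9, 85.2 and 86.4 FPKM in SR9011+TGFb against 114, 123 and 115 FPKM in TGFb (-0.40, adjusted p = 8.97e-06), and it was the lowest group for Tk1. Cdt1 had 75.6, 81.8 and 78.0 FPKM in SR9011+TGFb against 58.7, 58.3 and 63.3 FPKM in TGFb (0.38, adjusted p = 4.37e-07). Cdt1 and Mcm2 were the S phase genes that rose, as they did with SR9011 without TGFb.
In the mitosis class 19 of 24 fell and none rose, with a median of -0.21. Kif23 had 25.7, 24.1 and 26.3 FPKM in SR9011+TGFb against 35.6, 34.9 and 33.0 FPKM in TGFb (-0.43, limma adjusted p = 3.01e-07). Cdc20 had 63.8, 59.6 and 63.9 FPKM in SR9011+TGFb against 80.2, 84.7 and 88.5 FPKM in TGFb (-0.43, adjusted p = 1.77e-07). Bub1b (-0.39) and Plk1 (-0.39) followed. The 5 genes not called were Ccnb2, Ect2, Nusap1, Cenpf and Aurkb, and Ccnb2 had 81.2, 80.9 and 82.0 FPKM in SR9011+TGFb (-0.02, adjusted p = 0.817).

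CLK8 on top of TGFb was followed by 11 higher and 19 lower members against TGFb alone, again divided by class. Of all genes, 41.1% were called, 27.7% higher and 13.3% lower. In the S phase class 8 of 16 rose and none fell. Mcm2 had 162, 156 and 159 FPKM in CLK8+TGFb against 122, 124 and 131 FPKM in TGFb (0.34, limma adjusted p = 2.85e-07). Cdc45 had 53.2, 52.1 and 51.5 FPKM in CLK8+TGFb against 43.5, 43.2 and 45.7 FPKM in TGFb (0.24, adjusted p = 4.35e-05). Pcna (0.19), Cdc6 (0.16, a call lost after quantile normalization), Mcm4, Mcm5, Mcm6 and Mcm7 also rose, so 5 of the 6 MCM subunits did, while Mcm3 was not called.
In the mitosis class 17 of 24 fell and none rose, with a median of -0.19. Rescaled to TPM, 12 fell and none rose, with a median of -0.17 against 0.08 over all genes. After quantile normalization 17 fell and none rose. Ccnb1 had 66.2, 64.4 and 63.9 FPKM in CLK8+TGFb against 87.7, 84.0 and 86.3 FPKM in TGFb (-0.40, limma adjusted p = 4.95e-09). Plk1 (-0.33), Bub1b (-0.32) and Cenpa (-0.31) fell as well. Top2a, with 209, 222 and 215 FPKM in CLK8+TGFb against 227, 219 and 210 FPKM in TGFb, overlapped and was not called (-0.02, adjusted p = 0.807).

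The reply of these genes to TGFb was also measured inside each compound. With SB431542 present, TGFb called 1 of the 45 members, against 4.36% of all genes, 2.01% higher and 2.35% lower. This was Gins1, a GINS subunit, with 36.7, 40.0 and 35.8 FPKM in SB431542+TGFb against 44.2, 45.6 and 42.2 FPKM in SB431542 (-0.23, limma adjusted p = 0.0447). The call was lost with the replicate number as a block, a fit that called 0 members (10 at an unadjusted p under 0.05). With CLK8 present, TGFb was followed by 26 lower and 2 higher members, where 51.9% of all genes were called, 34.6% lower and 17.3% higher. Rescaled to TPM the split was 12 lower and 5 higher, against 21.7% and 26.3% of all genes. After quantile normalization it was 16 lower and 5 higher, against 26.6% and 24.1%. Tk1 had 128, 122 and 128 FPKM in CLK8+TGFb against 197, 202 and 213 FPKM in CLK8 (-0.69, limma adjusted p = 4.06e-09), and Nusap1 (-0.48), Birc5 (-0.36), Ccnb2 (-0.36) and Cdk1 (-0.33) were the mitosis genes of largest change.
With SR9011 present, 11 of the 24 mitosis genes were higher with TGFb, and the other 13 were not called, 4 of them with a negative change. TGFb was followed by 13 higher and 11 lower members, where 45.3% of all genes were called, 14.3% higher and 31.0% lower. Cenpf had 13.9, 14.2 and 14.6 FPKM in SR9011+TGFb against 8.56, 12.6 and 11.0 FPKM in SR9011 (0.39, limma adjusted p = 0.00114). Kif20a, a kinesin of cytokinesis, had 54.7, 53.1 and 53.5 FPKM in SR9011+TGFb against 47.0, 44.2 and 43.6 FPKM in SR9011 (0.25, adjusted p = 6.36e-06). Aurka (0.28) and Cenpe (0.34), the kinetochore kinesin, rose too.
In the same comparison 8 S phase genes fell, led by Cdt1 (-0.31), Tk1 (-0.22, groups overlapping) and Mcm2 (-0.21), and Rrm1 and Rrm2 rose. Rrm2 had 60.2, 57.5 and 59.1 FPKM in SR9011+TGFb against 46.6, 51.1 and 46.2 FPKM in SR9011 (0.29, limma adjusted p = 6.15e-06). Without SR9011 replicate 1 the members called numbered 18, with 9 mitosis genes higher and none lower. Fitting only the 2 groups called 14 members, 8 of them mitosis genes, all higher. The shares of all genes called in these refits are not given here, so these counts cannot be set against them. Rescaled to TPM the split over all members was 13 higher and 6 lower, against 16.7% and 21.5% of all genes. Of 60 further mitosis genes, described below, 8 were higher, 7 lower and 45 not called here, with a median of 0.02. Rescaled to TPM they were 12 higher and 2 lower, and after quantile normalization 17 higher and 2 lower. Their medians were then 0.07 and 0.05, and the median over all genes was -0.02 under either scaling.

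Whether the reply to TGFb differed with a compound was tested by the interaction, the log2 fold change with TGFb in the presence of the compound minus that in its absence. With SR9011 it was called for 23 members, 22 positive and 1 negative, against 31.9% of all genes, 16.6% positive and 15.3% negative. It was positive in all 24 mitosis genes, with 16 called and a median of 0.28, while the median over all genes was 0.01. Ccnb2 had an interaction of 0.51 (limma adjusted p = 0.000197), Cenpf 0.53 (adjusted p = 0.00314), Mki67 0.48 (adjusted p = 0.00212) and Cenpa 0.46 (adjusted p = 0.000259). Without a compound, the TGFb change was -0.43 for Ccnb2, -0.14 for Cenpf, -0.29 for Mki67 and -0.28 for Cenpa. Without SR9011 replicate 1 the interaction was called for 23 members, 17 of them mitosis genes, all positive.
With SB431542 the interaction was called for 12 members, 11 positive and 1 negative, against 34.3% of all genes, 21.5% positive and 12.8% negative. Ccnd1 (1.38, limma adjusted p = 0.000408), Tk1 (0.60, adjusted p = 1.76e-05), Gins2 (0.43, adjusted p = 4.93e-05) and E2f1 (0.39, adjusted p = 2.27e-05) were the largest. With CLK8 it was called for 1 member, E2f1 (0.29, limma adjusted p = 0.00329), against 7.97% of all genes, 4.58% positive and 3.39% negative, and 6 members had an unadjusted p under 0.05.

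**Figure D5:**
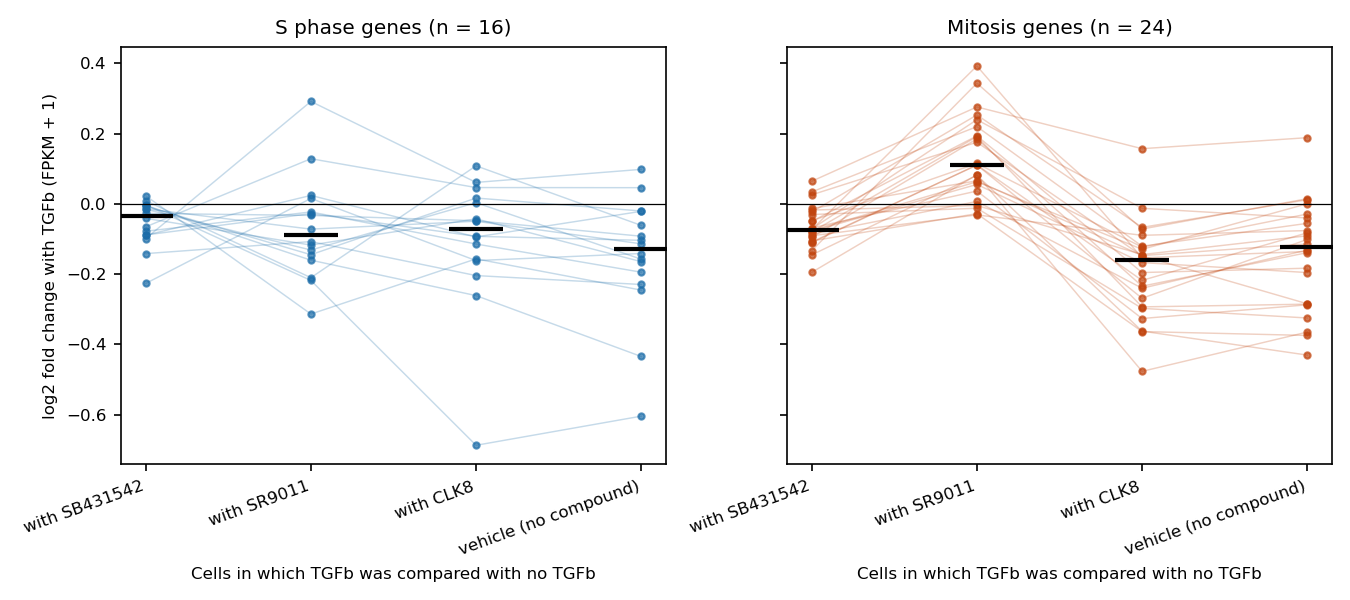
Log2 fold change of FPKM + 1 with TGFb against no TGFb, in cells with SB431542, SR9011 or CLK8 and in cells without a compound, for the S phase and the mitosis genes. Each thin line is a gene and black bars are medians. The mitosis median is 0.11 with SR9011 and -0.12 without a compound.

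Further cell cycle genes, 131 in 3 lists that hold no member, were counted beside the members. Among 27 genes of G1 control, TGFb raised 3 and lowered 13, against 20.5% and 34.4% of all genes. Rescaled to TPM it raised 5 and lowered 6, against 26.6% and 25.5%. Under that scaling neither share was above that of all genes. After quantile normalization it raised 5 and lowered 9, against 27.2% and 27.5%. Cdkn2b, the kinase inhibitor p15, had 67.9, 68.3 and 71.7 FPKM in TGFb against 28.8, 26.2 and 28.0 FPKM in vehicle (1.29, limma adjusted p = 4.88e-15). Myc rose by 0.91 and Cdkn1a, the inhibitor p21, by 0.58, while Cdkn1c, the inhibitor p57, fell by 1.46, Cdkn2c, the inhibitor p18, by 0.65 and Ccnd2, cyclin D2, by 0.58.
Cdkn1a had its highest means in the SR9011 and SR9011+TGFb groups. It had 50.5, 41.9 and 45 FPKM in SR9011 against 12.8, 16.3 and 16.1 FPKM in vehicle (1.54, limma adjusted p = 1.88e-11). With TGFb it had 43.8, 49.8 and 45.5 FPKM in SR9011+TGFb against 22.0, 25.6 and 21.6 FPKM in TGFb (0.98, adjusted p = 4.92e-08). Lin54, a DNA-binding subunit of MuvB, rose by 0.67 with SR9011, and Chaf1b, a histone chaperone of the fork, by 0.53. Ccnf, cyclin F, fell by 0.86, Cdkn1c by 0.87 and Cdkn2c by 0.74. With replicate 1 of SR9011 left out these were 1.47 for Cdkn1a, 0.80 for Lin54, 0.50 for Chaf1b, -0.90 for Ccnf, -0.95 for Cdkn1c and -0.74 for Cdkn2c, all called by limma.
With CLK8, Cdkn1c (0.42), Chaf1b (0.40) and Lin54 (0.37) were higher and Ccnd2 (-0.78), Myc (-0.39) and E2f5, an E2F family member (-0.38), lower, all called by limma. Cdkn1a had 18.4, 20.2 and 16.8 FPKM in CLK8 and rose (0.28, adjusted p = 0.0362), a call lost after quantile normalization. SB431542 alone raised Rpa1, a single-strand binding protein, by 0.37, Cdc25b, a phosphatase that activates Cdk1, by 0.24 and Chaf1b by 0.23, and lowered Myc (-0.38) and Cenpw, a centromere protein (-0.30).

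Among 44 further replication genes, SR9011 raised 8 and lowered 20, CLK8 raised 23 and lowered none, and TGFb raised 4 and lowered 27. The shares of all genes were 40.7% higher and 28.3% lower with SR9011, 30.3% and 13.6% with CLK8, and 20.5% and 34.4% with TGFb. Rescaled to TPM, where 26.6% of all genes rose and 25.5% fell with TGFb, TGFb raised 5 replication genes and lowered 18. Among 60 further mitosis genes, SR9011 raised 5 and lowered 46, with a median of -0.34. CLK8 raised 3 of them and lowered 10, or 2 and 8 rescaled to TPM. TGFb raised 1 of them and lowered 34, or 2 and 21 rescaled to TPM. The CLK8 counts also depended on scaling. After quantile normalization CLK8 raised 13 replication genes and lowered 1, and it raised 2 mitosis genes and lowered 21. The shares of all genes were then 21.1% higher and 19.4% lower. Leaving out replicate 1 of SR9011, its counts were 9 higher and 19 lower replication genes and 4 higher and 47 lower mitosis genes. With TGFb in both arms, where 36.8% of all genes were higher and 24.0% lower with SR9011, 27.7% and 13.3% with CLK8 and 38.3% and 21.4% with SB431542, the lists were counted again. The replication genes had 5 higher and 18 lower with SR9011, 18 higher and none lower with CLK8 and 28 higher and 3 lower with SB431542. The mitosis genes had 6 higher and 31 lower with SR9011, 5 higher and 16 lower with CLK8 and 33 higher and none lower with SB431542. The interaction of SR9011 with TGFb was called in 28 of the 60 further mitosis genes, all positive, while their own change with TGFb in the presence of SR9011 had a median of 0.02. Leaving out replicate 1 of SR9011, 28 were positive and 1 negative, and rescaled to TPM 17 were positive and none negative.
Foxm1 and Mybl2 encode activators of the mitotic genes. Foxm1 had log2 fold changes of 0.05 with SR9011 (limma adjusted p = 0.222) and 0.06 with CLK8 (adjusted p = 0.212), neither called, and fell by 0.19 with TGFb (adjusted p = 0.000154). Mybl2, which encodes B-Myb, fell by 0.18 with SR9011 (adjusted p = 0.00199) and was not called with CLK8 (-0.02, adjusted p = 0.822) or TGFb (-0.06, adjusted p = 0.321).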

How the data were processed

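RNA-seq was done on 24 libraries in 8 groups of 3, with biological triplicates per the labels. RNA came from either of 2 kits by yield, and the sources used here do not tie kits to samples. Reads were processed with HISAT2 2.0.4, Bowtie2 2.2.5, RSEM and DESeq2 on mm10, per the submitters' processing notes. The authors deposited FPKM with 16620 lines. 8 identifiers stood on 2 lines each, and those 16 lines were left out.

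From the deposited FPKM, log2(FPKM + 1) was computed and fitted with limma 3.58.1 (R 4.3.3, trend and robust), all 8 groups in one model with 16 residual degrees of freedom, for genes of at least 1 FPKM in 3 libraries. FPKM hold no depth, so the precision comes only from the replicates. The fit was tested on simulated data. The full values named are those of the 5 regulators, Mki67, Top2a, Pcna and Ccnb1, and in each comparison the 4 called genes of largest change and the gene of smallest change per class. Of further cell cycle genes, the rule named the 3 called of largest change each way against vehicle, and Cdkn1a, Cdkn2b, Myc, Foxm1 and Mybl2. Names outside the rule, such as Cdc6 and Cdk1 with SR9011, were added after their values were seen. Members and lists were chosen with earlier results of these data known. Alternatives were other pseudocounts and filters, TPM rescaling, quantile normalization, no trend, the compared groups alone, a replicate block and leaving out each library. Same-numbered SB431542+TGFb and SB431542 libraries deviated together (residual correlations 0.415, 0.208 and 0.117). The values given are those of the fit without a block, and the blocked count is given beside that comparison. Symbols and gene positions came from GENCODE on GRCm38, and promoters from RefSeq. With TPM, quantile normalization and the main scale, the median over all genes moved by less than 0.1 on the log2 scale.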

Additional observations from a re-analysis of the deposited data

Results flagged for a closer look

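These results are listed because the change with TGFb differed between cells with and without a compound, by the interaction in limma. No explanation was tested for them. With SB431542 the interaction was called for 12 of 45 members, against 34.3% of all genes. The G1/S regulators were Ccnd1 at 1.38, E2f1 at 0.39 and E2f8 at 0.30. The S phase genes were Tk1 at 0.60, Gins2 at 0.43, Cdt1 at 0.27 and Rrm2 at -0.20. Of the mitosis genes, Cenpa was at 0.31, Aurkb at 0.29, Ccnb2 at 0.29 and Birc5 at 0.27. The call of Ccnb2 was lost after rescaling to TPM and after quantile normalization.

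With SR9011 the interaction was called for 23 of 45 members, against 31.9% of all genes. The regulators were Ccne1 at 0.35 and E2f1 at 0.24. The S phase genes named were Tk1 at 0.39, Gins2 at 0.27, Rrm2 at 0.19 and Mcm6 at 0.17. The mitosis genes named were Cenpf at 0.53, Ccnb2 at 0.51, Mki67 at 0.48, Cenpa at 0.46, Top2a at 0.32 and Ccnb1 at 0.19. The calls of Mcm6 and Rrm2 were lost after rescaling to TPM, and those of Mcm6 and Top2a after quantile normalization. With CLK8 it was called for 1 member, E2f1 at 0.29, against 7.97% of all genes. The 3 interactions share the TGFb and vehicle libraries.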

How the results depend on the processing

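Of 2655 alternative values for 295 named gene results, 2580 kept their direction and side of the threshold, 49 lost the call, 25 gained it and 1 reversed: Pcna in CLK8+TGFb against CLK8 was 0.02 after quantile normalization. Of 2142 values with a library left out, 2050 kept both, 78 lost the call and 14 gained it. For SB431542 against vehicle, with no member called, the count was 2 with no filter, 2 after rescaling to TPM, 1 after quantile normalization and 1 with the replicate block. For SB431542+TGFb against SB431542, with 1 member, it was 2 with no filter, and 0 after rescaling to TPM, after quantile normalization, without the trend and with the replicate block. For SR9011+TGFb against SR9011, with 24 members, it was 14 with only the compared groups. For CLK8+TGFb against CLK8, with 28, it was 17 after rescaling to TPM. For the CLK8 interaction, with 1, it was 2 with no filter, 3 after rescaling to TPM and 3 after quantile normalization. The cause was not tested. The replicate block moved no other count of calls by over 1.5 times. Other same-numbered groups that were compared did not deviate together in all 3 pairs.

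With 1 library left out, the members called were 23 to 25 for TGFb against vehicle, 0 to 1 for SB431542, 42 to 43 for SR9011 and 16 to 22 for CLK8. On top of TGFb they were 20 to 26 for SB431542, 29 to 34 for SR9011 and 24 to 30 for CLK8. For TGFb within a compound they were 0 to 2 for SB431542, 18 to 27 for SR9011 and 22 to 26 for CLK8. For the interactions they were 9 to 13 for SB431542, 21 to 25 for SR9011 and 1 to 2 for CLK8. FPKM carry no depth, so counting error could not be given.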
